A study of Mus musculus with 43 samples.

Results

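The dorsomedial hypothalamus (DMH) was compared with the paraventricular nucleus (PVN) of the same brains in ad libitum-fed Snord116+/-P mice. The comparison held every fed mouse for which a DMH and a PVN library could both be matched to the labels, which gave 5 mice, named here as in the labels Fed-111, Fed-125, Fed-127, Fed-308 and Fed-313, and 10 of the 41 libraries of the series used here. All mice were C57/BL6 males of 17 to 19 weeks that carried the B6(Cg)-Snord116tm1.1Uta/J deletion on the paternal allele, so each value below describes nuclei of deletion mice, with no wild type beside them. The nuclei were cut out of cresyl violet-stained frozen sections by laser, each from many serial sections of 1 brain, and the RNA was amplified before sequencing. The same DMH and PVN comparison in 5 other mice fasted for 24 hours was used as an independent set of animals. The sixth fed mouse of the labels, Fed-92, was not used, because no column of the table matched its PVN sample, and an unmatched column named for its ARC was not assigned to it.

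The PVN is known as a neuroendocrine output nucleus. Its magnocellular neurons send vasopressin and oxytocin to the posterior pituitary, its parvocellular neurons release corticotropin-releasing and thyrotropin-releasing hormones, and its melanocortin-sensitive neurons restrain feeding, most of them by glutamate. The DMH lies behind it, holds a large share of GABA neurons, and is known for circadian and temperature control, for leptin-sensitive neurons and for the RFamide peptide neurons that express Npvf. It borders the lateral hypothalamus, where neurons that make orexin (Hcrt) and melanin-concentrating hormone (Pmch) lie.

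Levels are given as CPM (the authors' read counts scaled to the size of the library) per mouse in that order, or as the mean ± SD of these 5 mice. CPM does not account for gene length, so levels were compared between nuclei and not between genes. Differences are DMH minus PVN on the log2(CPM + 0.5) scale with the standard error (SE), which understates the fold of genes with low values, and a gene was called at an adjusted p under 0.1 in the limma fit over all genes tested, with the mouse as a block. The DMH libraries held about 2934000 to 8232000 reads and the PVN libraries about 3680000 to 7263000, so that 1 read was worth 0.121 to 0.341 CPM, and each library listed 95 to 534 of the 10127 genes of the table at 0. The first principal component, with 23.1% of the variance, separated the DMH from the PVN libraries, and on the second, with 17.2%, both libraries of mouse Fed-111 stood apart from the other 8. Mouse Fed-111 was the only mouse of batch 1, and batches 2 and 3 held 2 mice each. Each mouse gave both nuclei, so every difference was taken within a batch. The Snord116 genes themselves were not analysed here.

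Of 9571 genes tested, 376 were higher in the DMH (3.93%) and 338 were higher in the PVN (3.53%), together 714 (7.46%). With a difference of at least 1 on the log2 scale, these counts were 199 (2.08%) and 167 (1.74%). The median difference over all genes tested was 0.02. The calls had the same direction in 5 of 5 mice for 335 of the 376 genes and for 310 of the 338. In batch 2 and in batch 3 every called gene had the direction of the fit, and in the 1 mouse of batch 1 this held for 365 and 327 genes. These directions were counted among genes called from the same 5 mice. The selection itself favours such agreement, so the counts are no independent support. Over all genes tested, the 5 DMH and the 5 PVN libraries did not overlap in 530 (5.54%), and 180 of these were called higher in the DMH and 212 higher in the PVN. The genes higher in the DMH included 11 of 12 transcripts that share sequence stretches with the repeat-like gene Gm10800 (itself included), so their values may not be independent of each other. In limma without a trend of the variance over the level, 257 genes were called, 146 of them higher in the DMH. Leaving out a mouse gave 463 calls without Fed-127, 425 without Fed-308 and 463 without Fed-313.

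**Figure D1:**
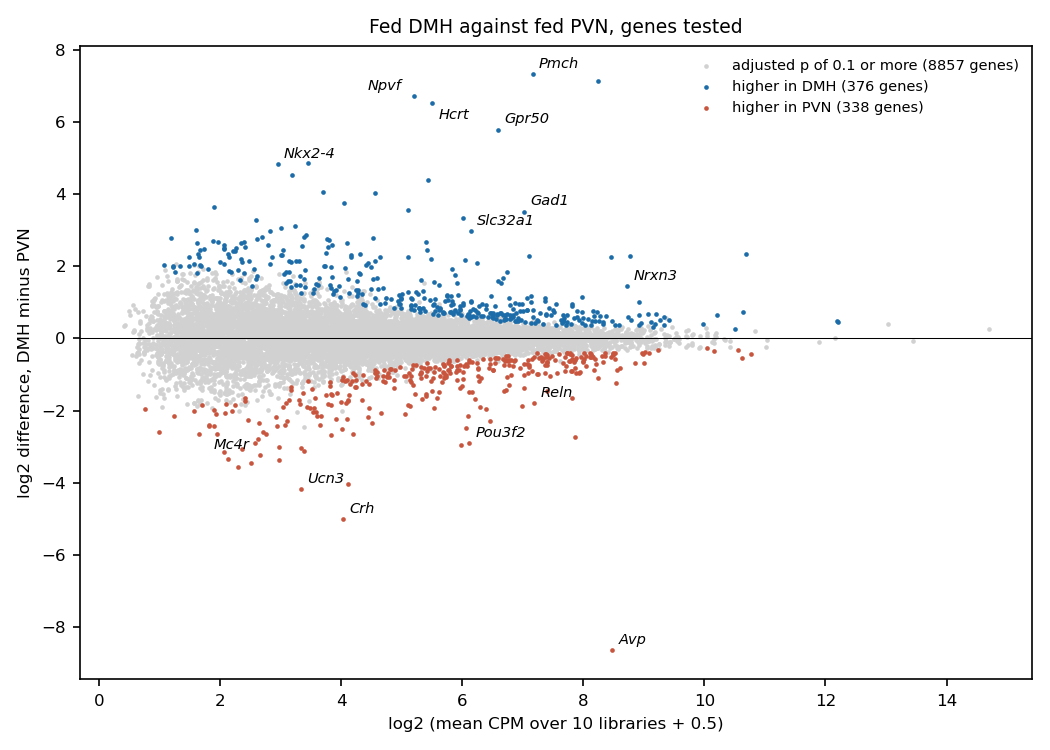
Difference between the fed DMH and PVN (DMH minus PVN on the log2(CPM + 0.5) scale, vertical axis) against the mean level over the 10 libraries (horizontal axis, log2), with 1 point per gene tested. The 376 genes called higher in the DMH are blue, the 338 called higher in the PVN are red and the other tested genes are grey, and Avp and Pmch lie farthest from 0.

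Marker genes of the captured nuclei were looked at first. Of 6 measured marker genes of DMH neurons, 5 were higher in the DMH and 0 were higher in the PVN, with a median difference of 2.67, and of 6 measured marker genes of PVN neurons, 6 were higher in the PVN, with a median of -3.72. The DMH markers summed to 260.5 to 409.7 CPM in the DMH libraries and 17.1 to 59.8 CPM in the PVN libraries. The PVN markers summed to 28.7 to 44.7 CPM in the DMH and 718.1 to 1467 CPM in the PVN. The sums thus separated the DMH from the PVN libraries. The lists include Npvf and Avp and were chosen with earlier results of these data known. Npvf and Hmx2 also passed the filter on low values through their DMH libraries alone. The counts are therefore no independent check of the labels. Over all genes tested, 3.93% were higher in the DMH and 3.53% in the PVN. In such tissue samples, fewer cells of a type and less RNA per cell cannot be told apart.

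Npvf, which encodes the RFamide-related peptides, was measured at 67.2, 57.6, 56.5, 112 and 68.5 CPM in the DMH. In the PVN it was at 0, 0.254, 0.238, 0 and 0.476 CPM, that is, at no more than a few reads in any library. The difference was 6.72 ± 0.44 (limma, adjusted p = 1.95e-07). Mouse Fed-308 had the highest DMH value and the other 4 lay close together. Avp, the vasopressin precursor, went the other way, with 1249, 759, 565, 395 and 580.5 CPM in the PVN and 2.73, 1.04, 0.385, 1.09 and 1.19 CPM in the DMH. Its difference was -8.65 ± 0.25, the largest of all genes tested in either direction (limma, adjusted p = 7.53e-12). Mouse Fed-111 had the highest Avp value in both nuclei. In the other nuclei of the same fed mice, Npvf averaged 0.358 ± 0.119 CPM in the arcuate nucleus (ARC) and 0.793 ± 0.692 CPM in the ventromedial hypothalamus (VMH), and Avp averaged 4.16 ± 3.7 CPM and 2.14 ± 0.354 CPM.

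The remaining DMH markers had smaller differences. Gpr50, an orphan receptor related to the melatonin receptors, was at 229, 142, 172, 188 and 211 CPM in the DMH and 2.45, 4.07, 2.14, 6.61 and 1.19 CPM in the PVN, a difference of 5.80 ± 0.33 (limma, adjusted p = 3.77e-08). The Gpr50 groups lay far apart, and in the fed ARC of the same mice it averaged 54.3 ± 12 CPM. Hmx2, a homeobox factor, was at 5.45, 7.69, 7.51, 4.37 and 6.95 CPM in the DMH and was listed at 0 in 4 of 5 PVN libraries (adjusted p = 0.000824 in limma). Lepr, the leptin receptor, was at 45, 20.2, 21, 15.2 and 8.98 CPM in the DMH and 4.89, 6.86, 4.28, 4.68 and 7.85 CPM in the PVN (difference 1.7 ± 0.43, limma, adjusted p = 0.0296). Mouse Fed-111 was highest and mouse Fed-313 nearly equal between its nuclei. The groups did not overlap, but the Lepr call was lost without mouse Fed-127 and in limma without a variance trend. Brs3, the bombesin-like receptor 3, was the marker that did not pass, with 8.94 to 22.8 CPM against 4.28 to 12.2 CPM (limma, adjusted p = 0.246).

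Among the PVN markers, Crh, the precursor of corticotropin-releasing hormone, was at 39.4, 30.0, 24.3, 30.7 and 30.9 CPM in the PVN and 0.682, 0, 0.964, 1.46 and 0 CPM in the DMH. Its difference was -5.01 ± 0.49 (limma, adjusted p = 1.52e-05). Ucn3, which encodes the related peptide urocortin 3, was at 22.3, 7.37, 25.5, 18.3 and 19.3 CPM in the PVN and 0, 0.416, 0, 1.09 and 1.86 CPM in the DMH, a difference of -4.19 ± 0.56 (limma, adjusted p = 0.000273). Mouse Fed-125 had the lowest PVN value of Ucn3, and it still lay above all 5 DMH values. Mc4r, the melanocortin 4 receptor through which the PVN restrains food intake, was at 6.79, 7.88, 8.57, 12.4 and 17.6 CPM in the PVN and 0, 1.25, 0, 2.79 and 0.678 CPM in the DMH (difference -3.24 ± 0.54, limma, adjusted p = 0.00199). Nrn1, the neurite-promoting surface protein neuritin, was at 68.7, 97.6, 138, 136 and 118 CPM in the PVN against 10.3 to 20.5 CPM in the DMH. Pou3f2, the POU factor BRN2 that is needed for the hormone neurons of the PVN to form, was at 79.9, 133, 132, 126 and 133 CPM against 6.14 to 25.8 CPM. None of these 5 genes overlapped between the nuclei.

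Of 24 neuropeptide and secreted-factor genes measured of a list of 72, 5 were higher in the DMH, 7 were higher in the PVN and 12 did not pass, with a median difference of -0.28 beside 0.02 over all genes. Over all genes tested, 3.93% were higher in the DMH and 3.53% in the PVN. The DMH genes were Pmch, Npvf, Hcrt, Nxph1 and Cck. The PVN genes were Avp, Crh, Ucn3, Bdnf, Nxph4, Nucb2 and Scg2. The largest peptide differences thus lay at both ends of the list, in genes that were near 0 in one nucleus. The stretches of 150 bases just before the transcription start of 5 of them, those with a RefSeq promoter entry among the 6 with the largest differences, are shown because these genes were almost entirely restricted to one nucleus in this pair. Sequences are from RefSeq on GRCm38.p6, 5′ to 3′ on the gene's strand, and capitals mark the letters TATAAA or TAATTA found on either strand.

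Npvf (chr6:50654446-50654595, minus strand): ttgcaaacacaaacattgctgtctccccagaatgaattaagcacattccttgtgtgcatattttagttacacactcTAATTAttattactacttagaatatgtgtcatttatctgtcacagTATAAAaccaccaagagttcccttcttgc
Hcrt (chr11:100762932-100763081, minus strand): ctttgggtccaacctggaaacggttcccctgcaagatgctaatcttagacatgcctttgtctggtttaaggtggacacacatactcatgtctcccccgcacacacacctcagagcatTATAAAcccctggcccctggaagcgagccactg
Pmch (chr10:88090922-88091071, plus strand): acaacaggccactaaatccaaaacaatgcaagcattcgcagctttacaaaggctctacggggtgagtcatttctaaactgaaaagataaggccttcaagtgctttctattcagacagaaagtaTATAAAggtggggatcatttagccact
Avp (chr2:130582589-130582738, minus strand): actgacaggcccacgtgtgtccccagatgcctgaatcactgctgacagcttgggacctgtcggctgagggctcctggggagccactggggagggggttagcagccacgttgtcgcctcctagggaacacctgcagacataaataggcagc
Ucn3 (chr13:3945350-3945499, minus strand): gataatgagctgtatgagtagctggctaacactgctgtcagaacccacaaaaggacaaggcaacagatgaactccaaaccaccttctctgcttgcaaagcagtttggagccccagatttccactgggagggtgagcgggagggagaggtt

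The stretches were searched on both strands for TATAAA, the common form of the TATA box, for TAATTA, the core recognised by many homeodomain proteins, for the cyclic AMP response element TGACGTCA and for the POU octamer ATGCAAAT. TATAAA stood in all 3 DMH peptide genes shown, beginning 29 bases before the start in Npvf, 33 in Hcrt and 27 in Pmch. TAATTA stood in Npvf alone, 74 bases before the start, and no 2 matches overlapped. In the same 150 bases, TATAAA was found in 8.08% of all 27025 promoters of the RefSeq table and TAATTA in 2.80%. Among genes with a promoter entry, TATAAA was found in 3.16% of the 6901 tested, in 10 of the 138 (7.25%) that were higher in the DMH by at least 1 and in 4 of the 123 (3.25%) that were higher in the PVN by at least 1. For TAATTA these shares were 1.07%, 2.17% and 3.25%. The letters TGACGTCA stood in 2.51%, 1.45% and 1.63% of these sets and ATGCAAAT in 0.812%, 0.725% and 0.813%.

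Pmch, the precursor of melanin-concentrating hormone, was at 631, 149, 200.1, 280.4 and 164 CPM in the DMH and 0.815, 0.508, 1.67, 0.964 and 1.43 CPM in the PVN, a difference of 7.33 ± 0.36 (limma, adjusted p = 1.02e-08). Hcrt, the orexin precursor, was at 169, 54.5, 69.6, 73.6 and 79.8 CPM in the DMH and 0.272, 1.02, 0.476, 0 and 0.476 CPM in the PVN, a difference of 6.54 ± 0.45 (limma, adjusted p = 2.81e-07). Mouse Fed-111 was highest for both peptides in the DMH, by over 2 times the next mouse, and neither gene overlapped between the nuclei. Both genes are defining markers of lateral hypothalamic neurons. Of the 4 measured markers of the lateral hypothalamus and zona incerta, 3 were higher in the DMH (3.93% of all genes tested were), Pmch and Hcrt among them, and Foxb1 did not pass. Their summed level was 211.0 to 816.6 CPM in the DMH libraries and 1.24 to 13.3 CPM in the PVN libraries, and the part of neighbouring tissue in these 2 results was not tested. In the other fed nuclei, Pmch averaged 0.954 ± 0.466 CPM in the ARC and 24.6 ± 9.33 CPM in the VMH. Parpbp followed Pmch, at 1464, 255, 453, 550.5 and 289 CPM in the DMH and 1.36, 4.32, 2.86, 1.79 and 6.66 CPM in the PVN. Parpbp (chr10:88091432-88146941, minus strand) overlaps Pmch (chr10:88091072-88092375, plus strand) on the opposite strand. The use of strand in counting is not given in the sources used here, so their reads cannot be told apart.

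**Figure D2:**
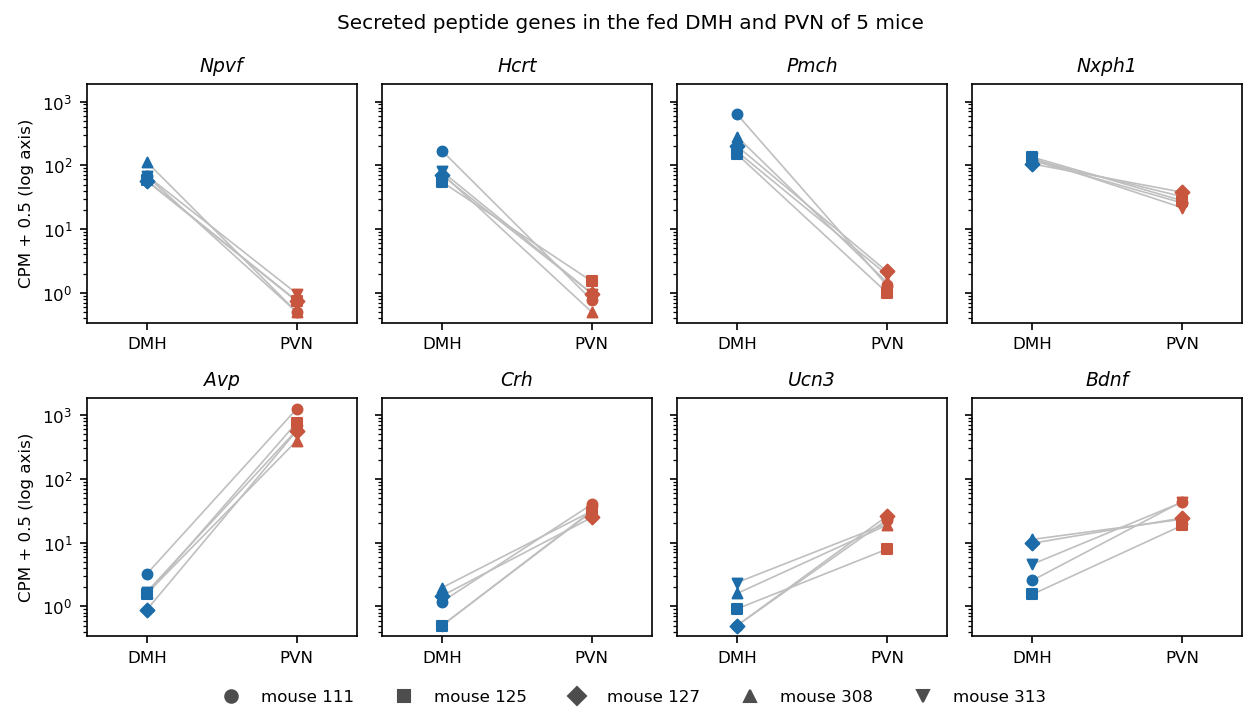
CPM plus 0.5 (vertical log axis) of 8 secreted peptide or protein genes in the fed DMH (blue) and PVN (red), with 1 symbol per mouse and a line joining the 2 nuclei of a mouse. Npvf, Hcrt, Pmch and Nxph1 are higher in the DMH and Avp, Crh, Ucn3 and Bdnf are higher in the PVN of each of the 5 mice.

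The other peptide genes showed partial differences. Nxph1, the neurexin-binding secreted protein neurexophilin 1, was at 119, 134, 105, 121 and 128 CPM in the DMH and 25.3, 27.5, 37.4, 31.8 and 21.2 CPM in the PVN (difference 2.09 ± 0.20, limma, adjusted p = 1.11e-05). Bdnf, the neurotrophin, was at 43.5, 18, 23.8, 22.7 and 42.3 CPM in the PVN and 2.05, 1.04, 9.25, 10.7 and 4.07 CPM in the DMH (difference -2.66 ± 0.47, limma, adjusted p = 0.00281). Scg2, the granin secretogranin II, was abundant in both, at 1279 ± 66.6 CPM in the DMH and 1861 ± 198 CPM in the PVN, with no overlap (limma, adjusted p = 0.00174). The most abundant members that did not pass were Scg3, with a difference of -0.38 ± 0.15, and Pcsk1n, with 0.08 ± 0.12. Other peptide genes with small differences were Penk at -0.28, Tac1 at -0.33 and Npy at -0.23, none of which passed.

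Of 51 receptor genes for neuropeptides and hormones in the table, 46 passed the filter on low values, and 7 of these were higher in the DMH, 10 were higher in the PVN and 29 did not pass, with a median difference of -0.33. The shares over all genes tested were 3.93% and 3.53%. The DMH genes included Gpr50, Lepr, Tacr1, Trhr, Oprm1 and Ntrk3. Trhr, the receptor for thyrotropin-releasing hormone, was at 18.4, 37.8, 32.2, 47.4 and 24.9 CPM in the DMH and 8.42, 11.7, 10.2, 13.4 and 15 CPM in the PVN, without overlap (difference 1.37 ± 0.30, limma, adjusted p = 0.0125). Tacr1, the substance P receptor, was at 9.2, 19.1, 25.4, 14.3 and 18.5 CPM against 1.09, 2.8, 7.38, 6.61 and 14 CPM, with overlap (adjusted p = 0.0344 in limma), and its call was lost without mouse Fed-125 or Fed-127 and without a variance trend. The PVN genes were Mc4r, Rxfp3, Agtr1a, Aplnr, Grpr, Sstr2, Cckar, Npy1r, Ghr and Gpr101. Agtr1a, the angiotensin II receptor of fluid and stress control, was at 23.6, 18.3, 16.9, 32.2 and 9.99 CPM in the PVN and 3.07, 4.16, 7.51, 5.34 and 1.53 CPM in the DMH (difference -2.15 ± 0.40, limma, adjusted p = 0.00435). Cckar, the cholecystokinin A receptor, was at 61.2 ± 10.1 CPM in the PVN and 18.7 ± 3.82 CPM in the DMH, without overlap (limma, adjusted p = 0.000556). Rxfp3, the relaxin 3 receptor, was at 27.4, 32.8, 33.6, 49.2 and 21.4 CPM against 0.682, 3.74, 11.8, 17.1 and 15.8 CPM (difference -2.19 ± 0.48). It did not overlap either, although its DMH values spread over more than an order of magnitude, and its call was lost without a variance trend. Aplnr, the apelin receptor, had a DMH value of 8.31 CPM in mouse Fed-125 and at most 0.682 CPM in the other 4, against 3.26 to 11.7 CPM in the PVN. Its call (limma, adjusted p = 0.0744) was lost when mouse Fed-127, Fed-308 or Fed-313 was left out, in the fit with neither mouse nor batch, with depth as a covariate and without a variance trend. The most abundant receptor genes that did not pass were Ntrk2, the Bdnf receptor, with a difference of 0.15 ± 0.08, and Adcyap1r1, the PACAP receptor, with -0.05 ± 0.10.

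Regional transcription factors keep the developmental address of hypothalamic neurons in the adult. Of 69 such genes in the table, 66 passed the filter, and 20 of these were higher in the DMH, 14 were higher in the PVN and 32 did not pass, with a median difference of -0.06. The shares over all genes tested were 3.93% and 3.53%. The factors higher in the DMH included homeobox genes known from GABA neurons and from the tuberal hypothalamus, Nkx2-4, Bsx, Isl1, Hmx2, Gsx1, Dlx1, Dlx5 and Dlx6 with the antisense transcript Dlx6os1. Other DMH members were St18, Insm1, Onecut3, Pou3f3, Sox1, Sox2, Nr2f2, Rorb, Zfhx3 and Tshz2. Nkx2-4 was at 14.3, 12.9, 11.9, 23.4 and 9.83 CPM in the DMH and was listed at 0 in all 5 PVN libraries (limma, adjusted p = 3.63e-05). Against a floor of 3 reads per library it was at least 21.2-fold higher in the DMH. Bsx was at 20.5, 13.9, 26.6, 9.11 and 14.4 CPM in the DMH and at most 0.714 CPM in the PVN (limma, adjusted p = 5.34e-05). Isl1, a LIM homeodomain factor, was at 19.4, 9.98, 21.4, 42 and 27 CPM in the DMH and 0.815, 1.02, 0.238, 3.17 and 0.238 CPM in the PVN (difference 4.07 ± 0.49, limma, adjusted p = 0.000126). Mouse Fed-308 was highest in both nuclei. St18, a zinc finger factor of the Myt family, was at 58.6, 73.2, 62.8, 87.8 and 129 CPM in the DMH and 2.99, 5.34, 4.28, 3.58 and 1.43 CPM in the PVN (difference 4.39 ± 0.37). Dlx1, which drives GABA synthesis genes in forebrain interneurons, was at 116 ± 16.5 CPM in the DMH and 11.9 ± 5.29 CPM in the PVN (difference 3.34 ± 0.27, limma, adjusted p = 2.1e-06). Dlx6os1 overlaps Dlx6 on the opposite strand, and its reads cannot be told apart from those of Dlx6 there. Mouse Fed-111 had the smallest difference of Dlx6os1, with 13.6 CPM in the DMH and 7.88 CPM in the PVN.

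The factors of the PVN included Uncx, Pou3f2, Neurod2, Foxb2, Zic1, Neurod1, Lhx2, Zic2, Zfp804a, Nhlh2, Ebf1, Foxp2 and Lmo3. Pou3f2 had a difference of -2.91 ± 0.23 and the smallest adjusted p of the 14 (1.73e-06 in limma). Uncx, a paired-type homeobox factor, was at 37.8, 10.7, 13.3, 16.1 and 13.3 CPM in the PVN and 1.02, 1.66, 3.08, 1.7 and 0.509 CPM in the DMH (difference -3.13 ± 0.50, limma, adjusted p = 0.00141). Foxb2 was at 3.26, 1.53, 2.14, 4.96 and 2.85 CPM in the PVN and was listed at 0 in 4 of 5 DMH libraries (limma, adjusted p = 0.0152). Zic1, a zinc finger factor of neural development, was at 37.1 ± 19.6 CPM in the PVN and 7.44 ± 6.05 CPM in the DMH (limma, adjusted p = 0.000771). Some members were uneven between mice. Neurod2 was at 3.26, 32, 10.7, 3.99 and 1.9 CPM in the PVN against at most 1.21 CPM in the DMH, so mouse Fed-125 was high, and its call (limma, adjusted p = 0.018) was lost without a variance trend. Lhx2 was at 46.5, 22.9, 14.5, 8.95 and 6.42 CPM in the PVN against 0.848 to 5.61 CPM in the DMH, with mouse Fed-111 high (limma, adjusted p = 0.00983). Among the most abundant factors that did not pass was Rora, with a difference of 0.26 ± 0.25.

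**Figure D3:**
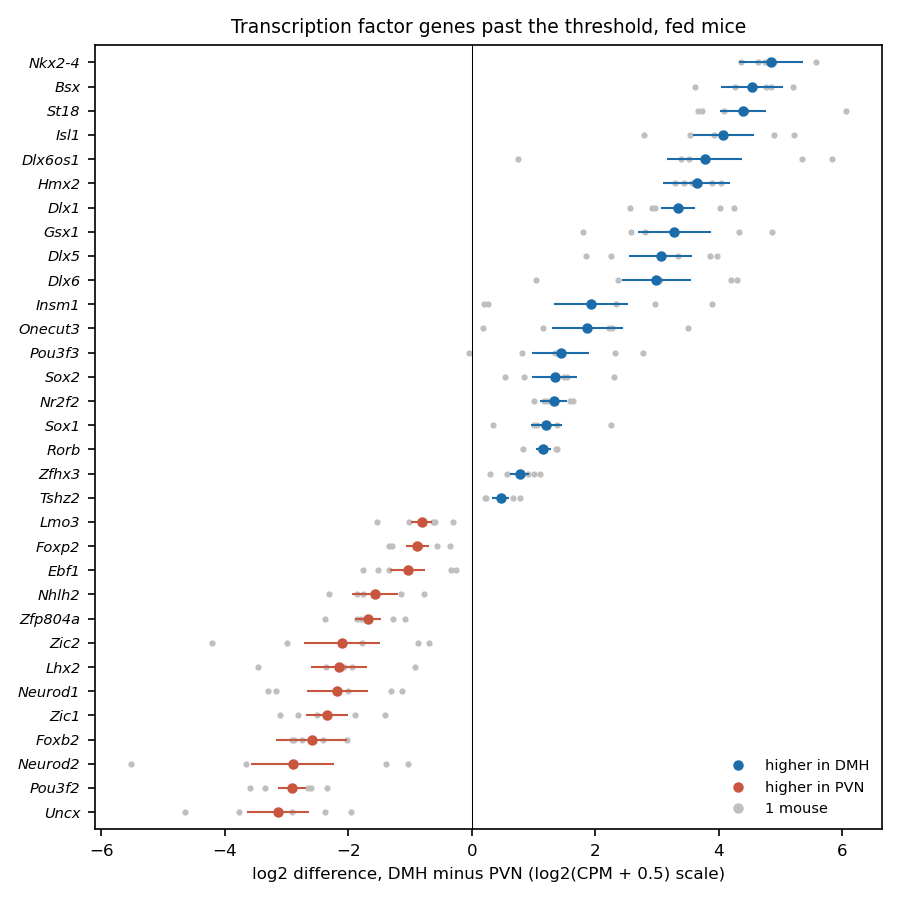
Difference between the fed DMH and PVN of 32 transcription factor genes past the threshold (horizontal axis, DMH minus PVN on the log2(CPM + 0.5) scale). Coloured points with bars are the fitted difference with its SE and grey points are the 5 mice, and the 19 genes from Nkx2-4 to Tshz2 lie above 0 and the 13 from Lmo3 to Uncx below it.

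Genes that make and load GABA were higher in the DMH, and the main vesicular glutamate transporter of the hypothalamus was higher in the PVN. Of 39 genes of GABA, glutamate and monoamine neurons in the table, 38 passed the filter, and 13 of these were higher in the DMH, 3 were higher in the PVN and 22 did not pass, with a median difference of 0.42. The shares over all genes tested were 3.93% and 3.53%. Gad1, which makes GABA, was at 243, 226, 179, 258 and 286 CPM in the DMH and 19.8, 10.7, 23.6, 34.6 and 18.8 CPM in the PVN, a difference of 3.52 ± 0.22 (limma, adjusted p = 1.1e-07). Slc32a1, the vesicular GABA transporter, was at 168, 85.4, 130.3, 115 and 122 CPM in the DMH and 18.2, 16.5, 20.9, 14.3 and 8.09 CPM in the PVN, a difference of 2.98 ± 0.24 (limma, adjusted p = 1.73e-06). The lowest DMH value lay far above the highest PVN value for both genes. In the ARC of the same mice Gad1 averaged 219 ± 25.5 CPM and Slc32a1 105 ± 12.7 CPM, and in the VMH they averaged 11.4 ± 5.11 CPM and 6.26 ± 4.3 CPM. The GABA reuptake transporter Slc6a11 was also higher in the DMH, by 0.67.

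Slc17a6, the vesicular glutamate transporter VGLUT2, was at 269, 448, 362, 399.9 and 395 CPM in the PVN and 141, 201, 182, 245 and 254 CPM in the DMH (difference -0.88 ± 0.12, limma, adjusted p = 0.000235). The Slc17a6 groups did not overlap, but the DMH kept a sizeable level. Nos1, the neuronal nitric oxide synthase, was at 213, 187, 186, 138 and 135 CPM in the PVN against 83.2, 118, 114, 92.1 and 108 CPM in the DMH (difference -0.72 ± 0.16, limma, adjusted p = 0.0129), and its call was lost without a variance trend. Grin3a, an NMDA receptor subunit, was the third PVN gene, with a difference of -0.55 ± 0.16 and with overlap (limma, adjusted p = 0.058). Its call was lost when any of mice Fed-111, Fed-125, Fed-308 and Fed-313 was left out, with depth as a covariate and without a variance trend.

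Among receptor subunits, the GABA-A genes Gabre, Gabra5, Gabrg3, Gabra3 and Gabrq were higher in the DMH. Gabre, the epsilon subunit, was at 226, 117, 115, 123 and 257 CPM in the DMH and 62.8, 47.8, 51.9, 24.4 and 40.4 CPM in the PVN (difference 1.84 ± 0.21, limma, adjusted p = 8.11e-05). Gabra5, the alpha 5 subunit, was at 80.1, 47.6, 94.6, 121 and 107 CPM and 27.2, 26.9, 24, 32.4 and 38.1 CPM (difference 1.53 ± 0.21, limma, adjusted p = 0.000398). Gabra5 overlaps another gene on the opposite strand, so reads in the shared stretch cannot be assigned. Other GABA-A subunits were not called, with a difference of -0.63 for Gabra2, -0.54 for Gabra4 and 0.31 for Gabrb1. The glutamate receptor genes Grm5, Grik2 and Gria2 were higher in the DMH, and Grm5, the metabotropic receptor 5, was at 148 ± 18.3 CPM against 51.8 ± 12.4 CPM (limma, adjusted p = 2.47e-05). The most abundant members that did not pass were Abat, a GABA-degrading enzyme, with 0.27 ± 0.13, and Grin2b with 0.15 ± 0.16. Th, the enzyme of catecholamine synthesis, had a difference of 0.44 ± 0.27 and did not pass.

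**Figure D4:**
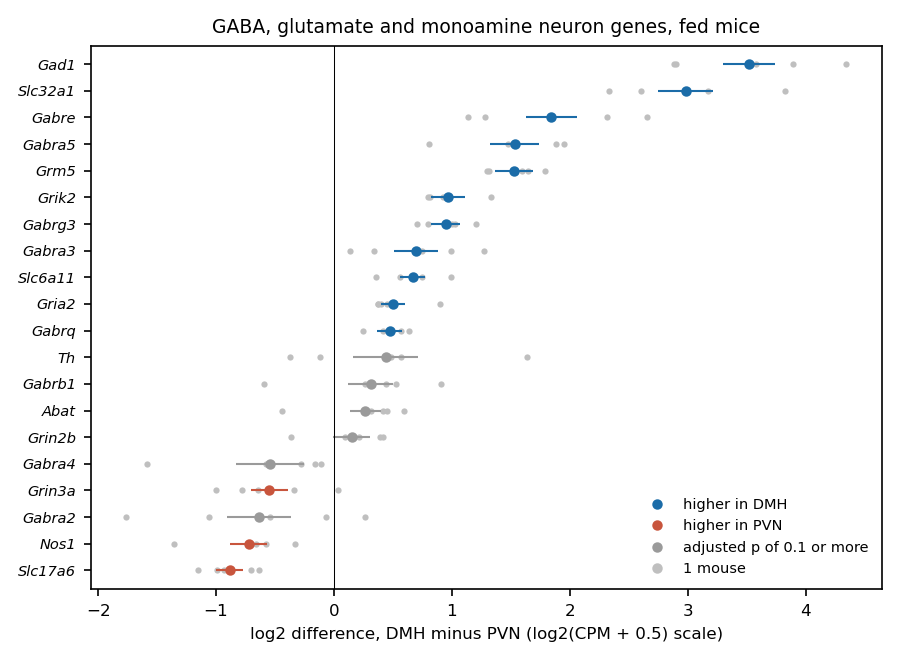
Difference between the fed DMH and PVN of 20 tested genes of GABA, glutamate and monoamine neurons (horizontal axis, DMH minus PVN on the log2(CPM + 0.5) scale). Coloured or grey points with bars are the fitted difference with its SE and small points are the 5 mice, and Gad1 and Slc32a1 lie farthest towards the DMH and Slc17a6 farthest towards the PVN.

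Of 66 ion channel genes tested, 6 were higher in the DMH, 10 were higher in the PVN and 50 did not pass, with a median of 0.17. The shares over all genes tested were 3.93% and 3.53%. Kcnh1, a voltage-gated potassium channel of the EAG family, was at 171, 168, 126, 129 and 133 CPM in the PVN and 19.4, 28.7, 24.1, 39.5 and 40.0 CPM in the DMH (difference -2.28 ± 0.21, limma, adjusted p = 1.08e-05). Kcnmb4, the beta 4 subunit of the BK channel, was at 31, 25.2, 26.7, 26.2 and 24.5 CPM against 7.84, 2.29, 2.5, 6.92 and 4.07 CPM (difference -2.52 ± 0.38, limma, adjusted p = 0.000823), and Kcnmb4os2, which overlaps it on the opposite strand, went the same way. Cacna2d1, the calcium channel subunit that binds gabapentin, was at 290.2, 471, 366, 511 and 415 CPM against 138, 228, 157, 207 and 231 CPM (difference -1.09 ± 0.11). Trpc5 had a difference of -1.03 ± 0.17. None of these 4 overlapped between nuclei, and the Trpc5 call was lost without a variance trend. In the DMH direction, Cacng5, an auxiliary subunit of AMPA receptors, differed by 1.30 ± 0.26, Kcnh7 by 1.01 ± 0.21, Kcng3 by 2.32 ± 0.62 and Trpm3 by 0.70 ± 0.19. Only Cacng5 of these kept its call in all the fits tried, since Kcnh7, Kcng3 and Trpm3 lost theirs without a variance trend. Kcng3 also lost it without mouse Fed-111 or Fed-308, and Trpm3 without mouse Fed-127, Fed-308 or Fed-313 and with depth as a covariate. The abundant sodium channel genes Scn2a, with -0.05 ± 0.11, and Scn3a, with -0.21 ± 0.12, did not pass.

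Of 93 adhesion and axon guidance genes, 14 were higher in the DMH, 15 were higher in the PVN and 64 did not pass, with a median of 0.09. The shares over all genes tested were 3.93% and 3.53%. Nrxn3, the presynaptic adhesion protein neurexin 3, was at 597, 738, 639, 542 and 591 CPM in the DMH and 247, 225, 237, 201 and 216 CPM in the PVN, with tight groups (difference 1.46 ± 0.10, limma, adjusted p = 4.35e-07). Reln, the secreted matrix protein reelin, was at 178, 268, 225, 229.8 and 223 CPM in the PVN and 48.7, 69.8, 91.5, 58.8 and 57.6 CPM in the DMH (difference -1.80 ± 0.15, limma, adjusted p = 2.83e-06). Nrn1 had a difference of -2.94 ± 0.28 (limma, adjusted p = 1.08e-05), and the contactin Cntn6 was at 92.9, 139, 99.7, 126.8 and 157 CPM in the PVN and 48.7, 20.2, 26.4, 39.4 and 31.4 CPM in the DMH. The teneurin Tenm3 differed by 1.18 ± 0.19 towards the DMH and the plexin Plxnd1 by -1.93 ± 0.45 towards the PVN. Both lost their call without a variance trend, and Plxnd1 also without mouse Fed-127. Ntng2, with 19.8, 46.8, 10.4, 5.34 and 5.42 CPM in the DMH and at most 3.44 CPM in the PVN, was high in mouse Fed-125 and lost its call without that mouse or without a variance trend. Epha3, a low ephrin receptor gene with a difference of 2.03 ± 0.58, lost it without mouse Fed-111, Fed-125, Fed-127 or Fed-308. The most abundant members, Lsamp and Pcdh17, did not pass, with differences of -0.26 ± 0.09 and -0.20 ± 0.10, but Lsamp was called in 6 of 12 alternative fits and Pcdh17 in 1.

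Of 22 genes of the secretory pathway and endoplasmic reticulum chaperones, 1 was higher in the DMH (Sytl4), 6 were higher in the PVN (Tmed3, Creb3l2, Manf, Hyou1, Scg2 and Cpe) and 15 did not pass, with a median of -0.38. The shares over all genes tested were 3.93% and 3.53%. Tmed3, a cargo receptor of the early secretory pathway, was at 86.7, 47.5, 48.6, 72.1 and 58.5 CPM in the PVN and 24.5, 9.98, 29.7, 22 and 18.3 CPM in the DMH (difference -1.61 ± 0.25, limma, adjusted p = 0.00106). Creb3l2, a stress-linked transcription factor anchored in the endoplasmic reticulum, was at 84, 97.1, 80.7, 95.6 and 55 CPM against 39.2, 52.2, 35.5, 27 and 30.5 CPM (difference -1.16 ± 0.20, limma, adjusted p = 0.00241). Manf and Hyou1, proteins that respond to stress of the endoplasmic reticulum, differed by -0.94 ± 0.21 and -0.63 ± 0.12, without overlap, and both calls were lost without a variance trend. Sytl4, a granule-docking protein, had a difference of 1.08 ± 0.28 with overlap, and its call was lost without mouse Fed-125 or Fed-127, with depth as a covariate and without a variance trend. Cadps and Ptprn2, dense-core vesicle genes, did not pass, with 0.19 ± 0.09 and -0.09 ± 0.12.

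Genes outside the lists were also among the 12 largest differences in each direction. In the DMH these were Parpbp, the kinase gene Ptk2b and the transcript 4933403O08Rik. Ptk2b was at 45, 41.4, 35.3, 15.9 and 80.9 CPM in the DMH and 1.63, 0.254, 3.09, 2.75 and 3.57 CPM in the PVN (difference 4.04 ± 0.47, limma, adjusted p = 8.72e-05), with mouse Fed-308 low and mouse Fed-313 high in the DMH. In the VMH of the same mice Ptk2b averaged 73.3 ± 18 CPM. The transcript 4933403O08Rik was at 11.9, 24.7, 21.4, 33.9 and 12 CPM in the DMH and at most 0.508 CPM in the PVN (limma, adjusted p = 1.93e-05). In the PVN they were Dnah8, Rufy4, Ahnak2, Omp, Kcnmb4os2, C1ql2 and Hs3st3b1. Dnah8, an axonemal dynein gene, was at 29.3, 30.2, 35.9, 34.7 and 30.2 CPM in the PVN and 2.05, 0.624, 1.54, 1.21 and 2.54 CPM in the DMH (difference -4.04 ± 0.41, limma, adjusted p = 2.17e-05). Rufy4 was at 7.88, 4.83, 7.86, 8.67 and 13.3 CPM in the PVN and was listed at 0 in 3 of 5 DMH libraries. Omp, the olfactory marker protein gene, was at 7.61, 6.1, 19, 21.8 and 12.8 CPM against 0, 0.832, 3.85, 1.34 and 0 CPM (difference -3.37 ± 0.54). It lies within Capn5 on the same strand, and reads of the shared stretch cannot be told apart. Hs3st3b1, a heparan sulfate sulfotransferase, was the only one of these genes to overlap between nuclei, since mouse Fed-125 had 0.763 CPM in the PVN.

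Markers of other cell types and of neighbouring nuclei were measured in the same libraries. Beside all marker lists below, 3.93% of all genes tested were higher in the DMH and 3.53% in the PVN. An unadjusted p under 0.05 was found for 1683 of the 9571 genes. Of 11 oligodendrocyte genes, 2 were higher in the DMH, Mbp among them by 0.55 ± 0.14, and 9 did not pass, with a median of 0.25 over the list. Their sum was 494.0 to 902.6 CPM in the DMH and 433.2 to 670.6 CPM in the PVN. The Mbp call was lost in 3 of the leave-one-mouse-out fits and without a variance trend. Of 9 astrocyte genes and 12 microglia genes, 0 passed in either direction, with sums of 755.0 to 964.4 and 147.1 to 288.0 CPM in the DMH and 730.4 to 812.0 and 161.4 to 256.2 CPM in the PVN. At an unadjusted p under 0.05 there were 0 astrocyte genes and 2 microglia genes.

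Of 10 vessel genes tested, 4 were higher in the PVN, a nucleus known for its dense capillary bed, and 0 were higher in the DMH, with a median of -0.73. Slco1a4, an organic anion transporter of brain endothelium, was at 53.5, 111.3, 62.4, 57.8 and 68.8 CPM in the PVN and 12.3, 16.6, 39.9, 24.2 and 39 CPM in the DMH (difference -1.50 ± 0.28, limma, adjusted p = 0.00494). The tight junction gene Cldn5, the efflux pump gene Abcb1a and the VEGF receptor gene Flt1 differed by -1.7 ± 0.52, -1.02 ± 0.33 and -0.54 ± 0.16. All 4 calls were lost without a variance trend, that of Abcb1a also when any mouse was left out and those of Cldn5 and Flt1 when any of mice Fed-111, Fed-125, Fed-127 and Fed-313 was. The summed vessel genes were at 155.9 to 209.3 CPM in the DMH and 268.3 to 325.1 CPM in the PVN, without overlap. The basement membrane gene Col4a1 and the mural gene Myl9 did not pass, with 0.39 ± 0.34 and 0.02 ± 0.44.

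Of 9 tested VMH markers, Nptx2, the neuronal pentraxin 2 gene, was higher in the DMH, at 9.89, 32.6, 9.25, 11.1 and 18 CPM against 0, 3.81, 3.09, 0.826 and 0.952 CPM (limma, adjusted p = 0.00174), and 8 did not pass. Of 2 tested ARC markers, Ghsr and Npy, 0 passed, with differences of 0.72 ± 0.41 and -0.23 ± 0.58. At an unadjusted p under 0.05 there were likewise 0. Of 6 thalamus markers, Zfhx3 was higher in the DMH by 0.78 ± 0.15, and its call was lost without a variance trend. Of 3 tested genes of the suprachiasmatic and anterior hypothalamus, Rorb was higher in the DMH, at 293, 339, 341, 351 and 416 CPM against 165, 157, 132, 159.7 and 159.9 CPM, and Avp was higher in the PVN. Of 5 tested ependymal, tanycyte and choroid plexus genes, the klotho gene Kl was higher in the DMH by 1.60 ± 0.37, a call lost without a variance trend, and Lhx2 was higher in the PVN. The choroid plexus gene Ttr did not pass the filter on low values.

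The same comparison in the 5 fasted mice shared no library with the fed mice. Of 9680 genes tested there, 487 were higher in the DMH (5.03%) and 489 were higher in the PVN (5.05%). Of the 376 genes higher in the fed DMH, 370 were tested in the fasted mice, 347 had the same direction, 231 (61.4% of the 376 and 47.4% of the 487) were called in the same direction and 2 in the opposite direction. Of the 338 genes higher in the fed PVN, 337 were tested, 322 had the same direction, 211 (62.4% of the 338 and 43.1% of the 489) were called in the same direction and 0 in the opposite direction. Of the genes that were not called in the fed mice, 2.81% and 3.07% were called in the fasted DMH and PVN direction. By list, the peptide genes called in both states were 5 in the DMH and 6 in the PVN direction, the receptors 6 and 7, the transcription factors 15 and 12, and the transmitter genes 13 and 2.

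Npvf was at 92.1 ± 21.3 CPM in the fasted DMH and 0.297 ± 0.178 CPM in the fasted PVN, a difference of 6.86 ± 0.39 (limma, adjusted p = 1.62e-09). Avp was at 891 ± 369.5 CPM in the fasted PVN and 2.16 ± 1.05 CPM in the fasted DMH, a difference of -8.38 ± 0.28 (limma, adjusted p = 1.22e-12). The fasted differences were 7.61 ± 0.31 for Pmch, 6.84 ± 0.39 for Hcrt and 3.54 ± 0.20 for Gad1, close to the fed ones. Crh had a fasted difference of -3.01 ± 0.39 beside -5.01 ± 0.49 in the fed mice, with 3.76 ± 2.04 CPM in the fasted DMH. In the fasted PVN, mouse Fast-86 was at 125.5 CPM and the others at 14.5 to 26.3 CPM. The difference of Crh between states did not pass, as no gene passed that test (interaction, limma, smallest adjusted p of all genes = 0.571). Bdnf was called in the fed and not in the fasted mice. Its fasted difference was -0.42 ± 0.34 (limma, adjusted p = 0.562), and the change between states was 2.24 ± 0.60 (interaction, limma, adjusted p = 0.836). The receptor Npy1r behaved alike, with -0.15 ± 0.29 in the fasted and -1.22 ± 0.28 in the fed mice (interaction, limma, adjusted p = 0.937). Neither the Bdnf nor the Npy1r difference between states passed the test.

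The difference between nuclei was then tested against nutritional state in a single fit. Of 10017 genes tested, 0 passed (0%) in limma, and 528 had an unadjusted p under 0.05, close to the share of 0.05 that chance gives. The smallest adjusted p values belonged to ENSMUSG00000089855, an identifier with no symbol here (0.571), Sv2c (0.571) and ENSMUSG00000083696 (0.59). Sv2c, a synaptic vesicle glycoprotein, was at 36.1, 36.2, 38.3, 21 and 72.6 CPM in the fed DMH and 14.7, 24.7, 36.7, 33.6 and 20.7 CPM in the fed PVN, and averaged 39.9 ± 6.11 CPM and 90.9 ± 20.1 CPM in the fasted nuclei. Its fed difference was 0.60 ± 0.32 and its fasted difference -1.16 ± 0.18. Without mouse Fed-308, 1 gene passed the interaction test, Sv2c, and without mouse Fast-86, 1 gene passed, ENSMUSG00000091228.

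**Figure D5:**
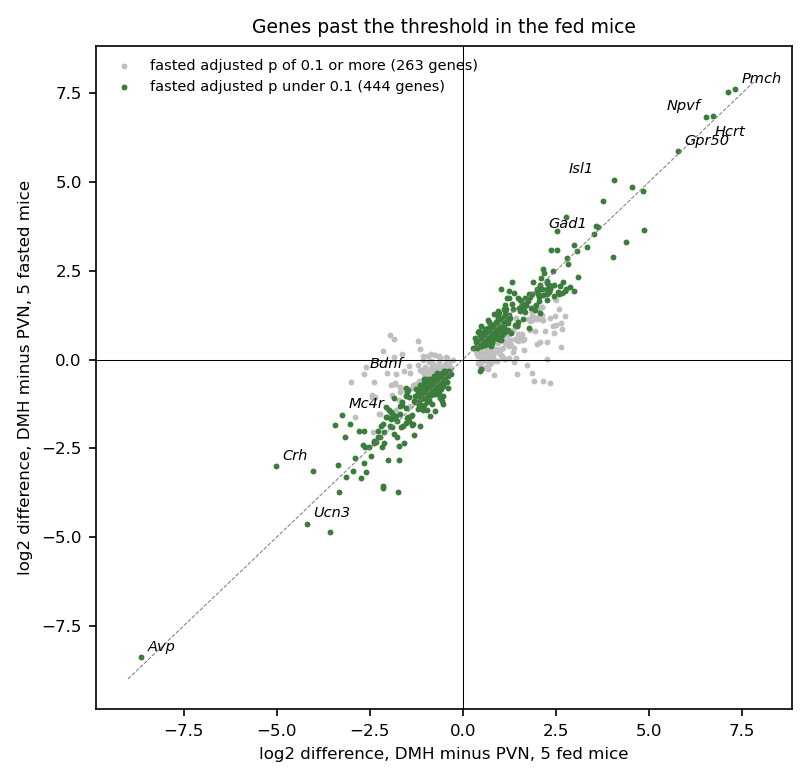
Difference between the DMH and PVN (DMH minus PVN on the log2(CPM + 0.5) scale) in the 5 fasted mice (vertical axis) against that in the 5 fed mice (horizontal axis) for the 707 genes called in the fed mice and tested in both states. The 444 genes also past the threshold in the fasted mice are green, the other 263 are grey and the dashed line marks equal differences, and the fasted differences of Bdnf and Mc4r are nearer 0 than the fed ones.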

How the data were processed

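RNA of laser-captured nuclei was SPIA amplified and sequenced as single-end reads. The authors mapped the reads to GRCm38, and the submitters' processing notes name CASAVA 1.7, TopHat2 2.0.11, Cufflinks 2.2.1, edgeR and limma. They left out outlier libraries, which can lower the spread between replicates. The counting program and its use of strand are not given in the sources used here. The authors deposited CPM per Ensembl gene in a table that, as used here, listed 10127 genes, 9891 of them with a symbol in GENCODE M21, and no identifier between ENSMUSG00000000861 and ENSMUSG00000028747, so Oxt, Trh, Sim1 and others were not analysed here. Columns were matched to samples by nucleus, state and mouse, 41 in all, and 2 columns that matched none were not used. Depth was read from the step between low values. Between 97.3% and 98.4% of values under 8 CPM in the fed libraries lay within 0.02 reads of a whole multiple, but 101 genes held values under 0.01 CPM, so no count test was run. Intervals from reads would cover counting error only, because amplified reads are not independent molecules.

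Genes with at least 1 CPM in at least 5 of the 10 libraries (4 of 8 where a mouse was left out) were tested on log2(CPM + 0.5) with limma 3.58.1 in R 4.3.3 (lmFit with nucleus and mouse, eBayes with a trend), 2-sided, with Benjamini-Hochberg adjustment over all genes tested and a threshold of 0.1. The nuclei of a number come from 1 brain, which is why mouse was a block. Deviations of the 2 nuclei of a mouse from their group means correlated at 0.009 to 0.151 across genes. The DMH of mouse Fed-125 correlated less with its own PVN (0.009) than with the PVN of another mouse (0.011). In the remaining mice the own PVN was highest, but in Fed-313 only by 0.053 against 0.051. The fits were tested on simulated data with known changes. Named genes were Npvf, Avp, the 12 largest differences per direction among called genes that went 1 way in 5 of 5 mice with at least 5 CPM, up to 4 called genes per direction and the 2 most abundant uncalled ones per list, and the 3 smallest interaction p values. Other names were added after their values were seen, and some genes are not reported here. Members, rules and gene lists were chosen with earlier results of these data known. Alternatives were other pseudocounts, filters, scalings, variance priors, covariates, blocks, weights, a threshold of 0.05, a fit with the ARC and VMH libraries and leaving out each mouse.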

Additional observations from a re-analysis of the deposited data

Results flagged for a closer look

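In 28 of the 216 sets of 5 libraries examined for the named genes (6 sets with at most 3 reads in every library were left out), 1 mouse lay far from the other 4 by Dixon's criterion, where chance gives about 1 in 20, or 10.8. Mouse Fed-111, whose libraries also stood apart on the second principal component, accounted for 12 of these, of which 10 were high.

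In the DMH, mouse Fed-111 was high for Pmch (631 CPM, others 149 to 280.4), Parpbp (1464 CPM, others at most 550.5), Hcrt (169 CPM, others 54.5 to 79.8), Ghsr (20.1 CPM, others 5.97 to 8.75) and Npy (5.45 CPM, others 0.832 to 2.12). It was low for the astrocyte gene Slc4a4 (304.7 CPM, others at least 412). In the PVN, the same mouse was high for Uncx (37.8 CPM, others 10.7 to 16.1), Trpm3 (113.3 CPM, others 60.3 to 68.5), Zfhx3 (147.8 CPM, others 87.1 to 104) and the identifiers ENSMUSG00000089855 (7220.3 CPM) and ENSMUSG00000083696 (8734 CPM), and low for Pou3f2 (79.9 CPM, others 126 to 133). Pmch, Hcrt, Ghsr and Npy were thus high together in the DMH capture of this mouse, and the part of neighbouring tissue was not tested. The first pair is on the marker list of the lateral hypothalamus and the second on that of the arcuate nucleus. In the ARC of mouse Fed-111, however, Ghsr was lower than in its DMH, at 11.8 CPM (others 25.9 to 44.0). Npy was at 370 CPM in that ARC.

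Mouse Fed-308 was high for Npvf in the DMH (112.2 CPM, others 56.5 to 68.5), with 0 CPM in its PVN. It was also high in the PVN for Isl1 (3.17 CPM), Scn2a (413 CPM), C1ql3 (29.5 CPM) and the oligodendrocyte gene Ugt8a (54.1 CPM, others 10.9 to 15.7) and low in the DMH for Ntrk2 (953 CPM). Mouse Fed-313 was high in the DMH for Ahnak2 (2.37 CPM), Kcnmb4os2 (1.36 CPM) and C1ql3 (44.8 CPM) and low for Foxb1 (0.339 CPM). Mouse Fed-127 was high for Hs3st3b1 in the DMH (2.70 CPM) and for Abcb1a in the PVN (32.6 CPM), and low for Rorb in the PVN (132 CPM). Mouse Fed-125 was high for Aplnr (8.31 CPM) and Col23a1 (14.8 CPM) in the DMH and for Slco1a4 in the PVN (111.3 CPM, others 53.5 to 68.8).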

How the results depend on the processing

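Of the 78 named genes that were called, 51 kept their call in all 12 alternatives that could be run for them, 61 in every fit without 1 mouse and 49 in both, and 0 changed direction. Genes with a mean under 5 CPM over both nuclei, such as Foxb2 and Hmx2, could not be tested under that filter. Of the 33 named genes not called, 5 were called in at least 1 of these 12 alternatives (Lsamp, Pcdh17, Scg3, Abat and Brs3). Rora was not among them. In the fits without 1 mouse its adjusted p in limma ran from 0.0824 to 0.993, so it passed in at least 1 of these and not in all. Limma without a trend of the variance called 146 genes higher in the DMH, 257 in all and 98 higher in the PVN by at least 1, and 235 and 204 in the fasted mice, and the cause was not tested. Leaving out 1 mouse gave 222 to 385 genes higher in the DMH and 425 to 707 in all, lowest without Fed-308 and by over 1.5 times fewer also without Fed-127 and Fed-313. In the fasted mice it gave 281 to 573 and 287 to 516, lowest without Fast-100 and over 1.5 times fewer in the DMH direction also without Fast-101 and in both without Fast-305. The interaction gave 0 to 1 genes, with a smallest adjusted p of 0.0727 (Sv2c) without Fed-308 and 0.0720 (ENSMUSG00000091228) without Fast-86, and of 0.143 to 0.968 in the other fits without 1 mouse. Without the mouse as a block, 786 genes were called with batch as a covariate and 533 with none, so the pairing moved neither count by over 1.5 times, but Aplnr, Mbp, Flt1 and Abcb1a lost their calls without the block in at least 1 of these fits. The share of calls higher in the DMH was 47.2% to 56.8% over all fits, and the median of all genes was -0.01 under both other scalings. At these depths 3 reads were 0.364 to 1.02 CPM, so differences between lower values could not be seen. In simulated data like the fed libraries, 39% of genes changed by 1 on the log2 scale and 81% of those changed by 2 were recovered, and 18% and 52% for the interaction with state.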

Other observations

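The genes in this section lie outside the lists and were chosen after their values were seen. Several signalling and membrane genes differed. Tns1, which encodes the focal adhesion protein tensin 1, was at 402 ± 41.4 CPM in the PVN and 61.9 ± 18.9 CPM in the DMH, a difference of -2.74 ± 0.14 (limma, adjusted p = 1.93e-08) that was -3.34 ± 0.18 in the fasted mice. Fat1, an atypical cadherin, was at 341 ± 46.6 CPM against 110.3 ± 23.8 CPM, Fosl2, an AP-1 transcription factor, at 129.5 ± 22.2 CPM against 36.7 ± 19.9 CPM, and the neuregulin gene Nrg1 at 73.2 ± 16.2 CPM against 18.8 ± 4.59 CPM. In the DMH direction, Fzd5, a Wnt receptor, was at 62.1 ± 30.8 CPM in the DMH and 5.79 ± 4.14 CPM in the PVN, a difference of 3.58 ± 0.36 (limma, adjusted p = 2.17e-05). Esyt3, an extended synaptotagmin, was at 72.5 ± 26.6 CPM against 10.7 ± 2.78 CPM, and Syt1, the calcium sensor of synaptic vesicles, at 649 ± 42.4 CPM against 322 ± 34.3 CPM. None of these genes overlapped between the nuclei in the fed mice.

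Receptor genes missing from the receptor list also differed. Npbwr1, the receptor for neuropeptides B and W, was at 37.8 ± 7.51 CPM in the DMH and 8.58 ± 3.91 CPM in the PVN (difference 2.15 ± 0.32, limma, adjusted p = 0.000831). Its fasted difference of 1.10 ± 0.40 did not pass (limma, adjusted p = 0.123), and the difference between the states was -1.05 ± 0.55 (adjusted p = 0.946 in limma). Npsr1, the neuropeptide S receptor, was at 21.6 ± 4.61 CPM against 4.18 ± 1.86 CPM and was called in the fasted mice too.

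Gm10800 and 11 other transcripts that share at least 5% of their stretches of 25 bases with it were among the genes tested. In the DMH, Gm10800 was at 1111, 2853, 1728, 3047 and 3273 CPM, and in the PVN it was at 199, 402, 1405, 59.8 and 2465 CPM. Every mouse had more in the DMH, but the groups overlapped, with Fed-308 lowest and Fed-313 highest in the PVN. Of the 12 transcripts, 11 were called higher in the fed DMH, with differences of 1.64 to 2.45 over the 12, and 12 were called in the fasted mice, with 1.85 to 2.22. How reads of the shared stretches were divided among these transcripts is not known, so the 11 calls may not be separate ones.

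Of the genes near the deleted cluster, Magel2 was at 74.9 ± 11.3 CPM in the DMH and 52.4 ± 22.7 CPM in the PVN (limma, adjusted p = 0.137) and Ndn at 732 ± 93.3 CPM and 797 ± 139 CPM (limma, adjusted p = 0.615), and neither passed.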
